A study of Danio rerio with 4 samples.

Results

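The genes described here encode the proteasome and the cytosolic chaperonin CCT, the main machines for protein degradation and for the folding of actin and tubulin. They were chosen by symbol, as all rows named psma, psmb, psmc, psmd, psme, psmf or psmg with a number, cct2 to cct8 and tcp1. Of 32057 genes in the tables, 65 rows fitted this pattern and 59 of them had at least 10 reads in at least 2 of the 4 libraries. These 59 members comprised 47 proteasome genes, 1 immunoproteasome gene, 9 rows of CCT and 2 genes of partner proteins (psmc3ip and psme3ip1), which share only the beginning of the symbol.

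RNA of whole zebrafish embryos at 72 hpf was sequenced from 2 pools of nexn-/- and 2 pools of nexn+/+ embryos, each of 25 embryos. The nexn-/- line carries a CRISPR/Cas9-induced deletion in nexn, the gene of the Z-disc protein Nexilin, and the study used the comparison to look for transcripts that respond to its loss. The nexn-/- pools came from nexn-/- parents and the nexn+/+ pools from nexn+/+ parents. These adults descended from a heterozygous pair and were housed by genotype, so parents, tank and pool cannot be told apart from genotype. Nothing in the labels says whether the replicates of a genotype came from separate clutches, so p-values measure the spread between these libraries only.

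The 26S proteasome degrades proteins that carry a ubiquitin chain. Its 20S core is a barrel of alpha and beta rings with the catalytic sites inside, and its 19S particle recognizes the chain, unfolds the protein with a ring of ATPases and feeds it into the core. The immunoproteasome is a form in which immune cells exchange the catalytic beta subunits for inducible ones. CCT is a double ring of different but related subunits that encloses newly made actin, tubulin and other proteins while they fold. Both machines work in muscle, where sarcomeric proteins are folded with the help of chaperones and degraded in part by the proteasome.

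Estimated counts summed to 20926983 and 21956272 in the nexn-/- libraries, against 20061135 and 19413597 in the nexn+/+ libraries, so 1 CPM (a count scaled to library size) stands for about 20 reads. nexn itself had 895 and 1165 counts in nexn-/- embryos, against 1700 and 1496 in nexn+/+ embryos (log2(FC) −0.91, SE 0.168, Benjamini-Hochberg adjusted p = 0.00737 by the quasi-likelihood test of edgeR). Of 20312 genes tested, 30.6% were called at an adjusted p under 0.05 and a log2(FC) beyond 0.5, which was 16.7% higher and 13.9% lower in nexn-/- embryos. The libraries held RNA of all tissues examined by marker genes, and several of these lists moved with genotype. All 11 tested liver markers and all 10 erythroid markers were called higher in nexn-/- embryos, and all 13 photoreceptor markers were called lower. In these bulk samples fewer cells of a type and less RNA per cell cannot be told apart, and the part of tissue composition in the results on proteasome and chaperonin genes was not tested. The nexn+/+ libraries differed from each other in fast skeletal muscle and lay on either side of the nexn-/- libraries. Its 16 marker genes summed to 78005 and 82691 CPM in nexn-/- libraries, against 128216 and 58170 CPM in nexn+/+ libraries.

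Proteasome and chaperonin genes differed little between genotypes. Of 59 members, 1 was called higher (psme1, an activator subunit) and 2 were called lower (cct2, a chaperonin subunit, and psmf1, a proteasome inhibitor) in nexn-/- embryos, together 5.08% of the members against 30.6% of all tested genes. When nexn+/+ replicate 1 was left out, 1 member was called higher (psme1) and 1 lower (psmg3). Without the fold limit, 6 members (10.2%) had an adjusted p under 0.05, against 35.1% of all tested genes. This count was 3 with DESeq2 and 1 with scaling by library size, the upper quartile or rpl13. Most members are abundant, with a median of 88.1 CPM. As a background at that level, 35.4% of the 4179 tested genes with a mean of 40 CPM or more were called and 47.7% of them had an adjusted p under 0.05. Some members lie below 40 CPM, the called psme1 and psmf1 among them, so this background does not match all members. In TMM-scaled CPM, genotypes did not overlap for 30 members (50.8%), of which 26 were lower and 4 higher in nexn-/- embryos. This compared with 70.9% of all tested genes and 77.8% of the abundant ones.

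The size of the differences was small beside the rest of the transcriptome. An absolute log2(FC) of 0.25 or less was found for 49 of 59 members (83.1%), against 30.4% of all tested genes and 33.4% of the abundant genes. The SD of log2(FC) was 0.22 over members, 0.92 over all tested genes and 0.60 over the abundant ones. The median absolute difference between genotypes, 0.11 on the log2 scale, lay between the median absolute difference of the 2 nexn-/- replicates (0.15) and that of the 2 nexn+/+ replicates (0.09). The former compares 2 libraries with 2, the latter single libraries. The nexn-/- replicates differed mostly in one direction, with 51 of 59 members lower in replicate 1 than in replicate 2. The median log2 ratio of replicate 1 to 2 was −0.15 for members and −0.0009 for all tested genes. In nexn+/+ libraries 37 members were lower in replicate 1, with a median of −0.03. For 41 members (69.5%) the 95% interval of log2(FC) lay wholly within ±0.5, which held for 13.3% of all tested genes and 26.4% of the abundant ones. These 41 became 27 when libraries were scaled by size alone and 12 when they were scaled to rpl13.

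**Figure D1:**
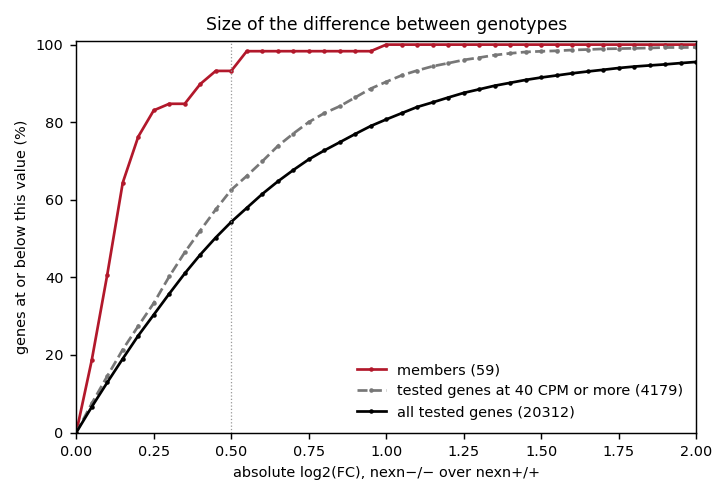
Share of genes (vertical axis, %) whose absolute log2(FC) between nexn-/- and nexn+/+ embryos is at or below the value on the horizontal axis, for the members (red), tested genes at 40 CPM or more (dashed grey) and all tested genes (black); the dotted line marks 0.5. At 0.25 the curve of the members stands at 83.1%, that of all tested genes at 30.4%.

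The median log2(FC) of the members was −0.10, and 42 of 59 values lay below 0. This direction depended on the scaling, as 19 values lay below 0 with library size alone, 30 with upper quartile scaling and 10 with scaling to rpl13, settings that raise the median of all tested genes by 0.15, 0.10 and 0.23. Relative to the median of all tested genes, the 47 proteasome genes stood at −0.10 and the 9 CCT rows at −0.19. Under the 3 other scalings these distances were between −0.11 and −0.10 and at −0.19. A change of scaling shifts all genes nearly alike, so it can hardly alter such a distance and does not test it. Against genes of similar abundance the order was the other way round, since the tested genes at 40 CPM or more had a median log2(FC) of −0.25, with 2931 of 4179 below 0, and the proteasome genes (−0.08) and CCT (−0.17) lay above it. Leaving out nexn-/- replicate 1 brought the proteasome genes to 0.01 and CCT to −0.11 relative to all genes.

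**Figure D2:**
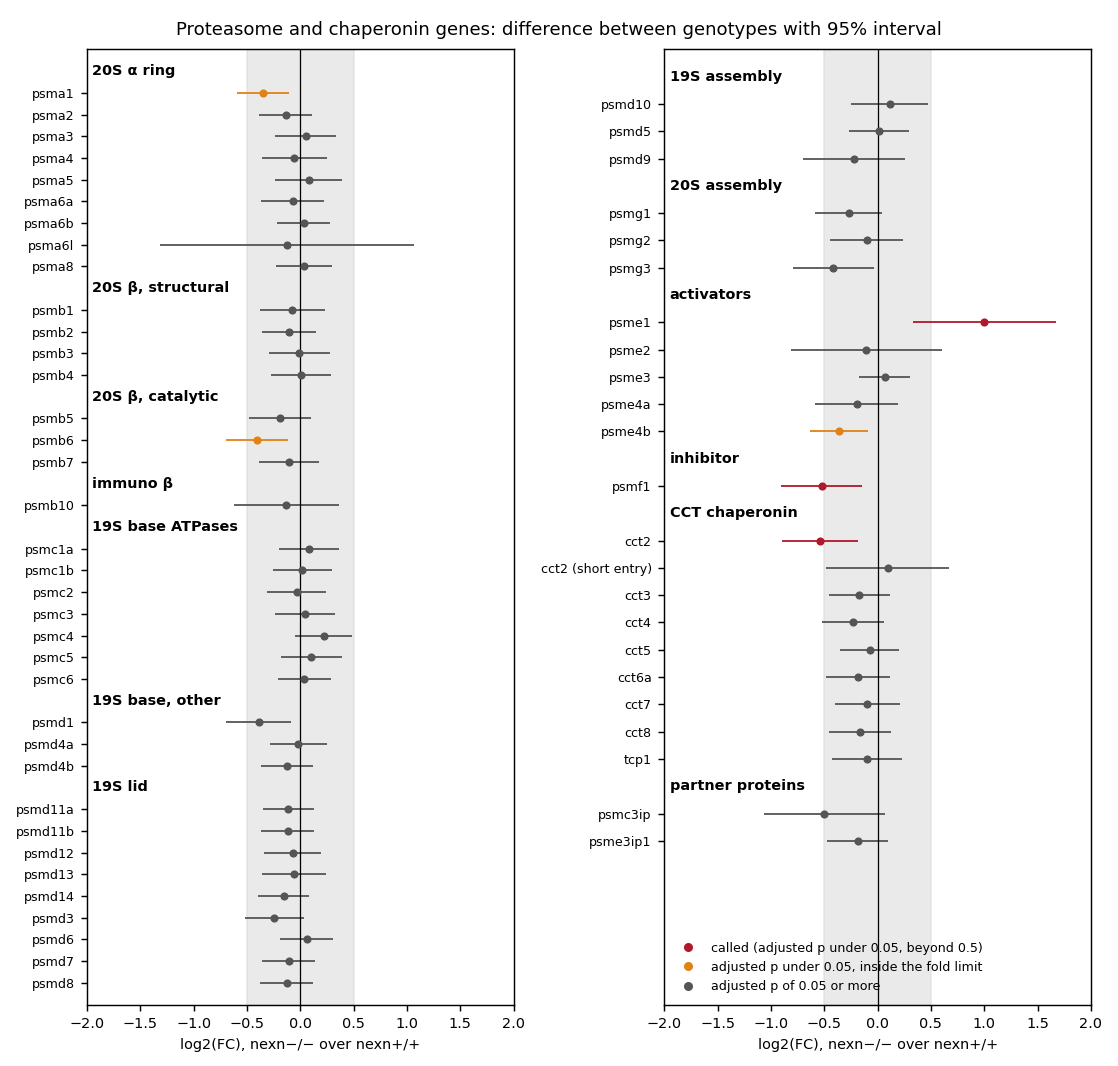
log2(FC) of each of the 59 members, nexn-/- over nexn+/+ embryos, with the 95% interval of edgeR's test, grouped by role. The grey band marks ±0.5; red marks called genes (psme1, psmf1, cct2), orange those with an adjusted p under 0.05 inside the band (psma1, psmb6, psme4b).

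Within the 20S core and the 19S particle, none of 35 subunit genes was called, and 2 of them had an adjusted p under 0.05 by edgeR. The summed level of the 16 core genes was 2312 and 2505 TPM (transcript abundance corrected for length and scaled to the library) in nexn-/- libraries, against 2052 and 2588 TPM in nexn+/+ libraries. The 19 genes of the 19S particle summed to 1652 and 1726 TPM in nexn-/- libraries, against 1416 and 1695 TPM in nexn+/+ libraries. Both sums overlapped between genotypes. The ratio of the median 19S gene to the median core gene, which needs no scaling between libraries, was 0.452 and 0.488 in nexn-/- libraries, against 0.459 and 0.441 in nexn+/+ libraries, and it overlapped as well.

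The alpha rings close the barrel and gate the entry of substrates. Of 9 alpha genes, none was called and their median log2(FC) was −0.06. psma1 was the lowest, with 66.9 and 65.2 CPM in nexn-/- libraries, against 82.5 and 86.0 CPM in nexn+/+ libraries (log2(FC) −0.35, SE 0.10, adjusted p = 0.035 by edgeR's test). In TMM-scaled CPM psma1 fell in both nexn-/- libraries by more than replicates differed, but stayed inside the fold limit. Its deposited TPM overlapped, with 33.4 and 31.4 in nexn-/- libraries, against 32.9 and 40.8 in nexn+/+ libraries. The adjusted p of psma1 was 0.065 with DESeq2 and 0.114, 0.380 and 0.687 with scaling by the upper quartile, library size and rpl13 (log2(FC) −0.25, −0.21 and −0.12). psma5 was the highest at 0.08 (adjusted p = 0.679), and psma6l, at 11 to 21 reads a library, and named for its low level after its values were seen, had a 95% interval from −1.31 to 1.07, within which large differences in either direction lie.

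The catalytic beta subunits cut the protein chain, psmb5 with a chymotrypsin-like, psmb6 with a caspase-like and psmb7 with a trypsin-like activity. psmb5 had 171 and 196 CPM in nexn-/- libraries, against 202 and 215 CPM in nexn+/+ libraries (log2(FC) −0.19, SE 0.12, adjusted p = 0.272). psmb7 had 127 and 145 CPM in nexn-/- libraries, against 144 and 149 CPM in nexn+/+ libraries (log2(FC) −0.11, SE 0.12, adjusted p = 0.522). In TMM-scaled CPM the genotypes did not overlap for psmb5 and overlapped for psmb7, and neither passed edgeR's test. In TPM psmb5 overlapped too, with 194 and 213 in nexn-/- libraries, against 183 and 233 in nexn+/+ libraries. The 95% intervals ran from −0.48 to 0.10 for psmb5 and from −0.38 to 0.17 for psmb7. psmb6 had 81.2 and 96.1 CPM in nexn-/- libraries, against 114 and 121 CPM in nexn+/+ libraries (log2(FC) −0.41, SE 0.12, adjusted p = 0.042), and so fell without reaching the fold limit. Its adjusted p was 0.101, 0.275 and 0.512 with scaling by the upper quartile, library size and rpl13 (log2(FC) −0.30, −0.26 and −0.18). The structural beta genes showed less, between −0.10 for psmb2 and 0.00 for psmb4, with all 4 intervals inside ±0.5.

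The deposited values of psmb6 also differed in effective length. This quantity, which follows from deposited counts and FPKM and shifts when reads move between long and short transcripts, was 814 and 662 nt for psmb6 in nexn-/- libraries, against 553 and 585 nt in nexn+/+ libraries. Among 55 members with 100 or more counts in every library, psmb6 was the only one whose effective length did not overlap between genotypes and differed by more than 0.25 on the log2 scale, a combination found in 4.24% of 12014 tested genes. With an offset for effective length, psmb6 was called lower (log2(FC) −0.76, adjusted p = 0.022, edgeR). Relative to the median of the other constitutive beta subunits, psmb6 stood at 0.612 and 0.781 in TPM in nexn-/- libraries, against 1.13 and 1.03 in nexn+/+ libraries. TPM is divided by effective length, so this ratio includes the shift in length, and it was not computed from counts for psmb6. The same ratio did not overlap between genotypes for psmb1, psmb3, psmb4, psmb5 and psmb7 either, all higher in nexn-/- libraries, with psmb6 among the genes each was set against, and it overlapped for psmb2. Which transcripts were involved was not analysed here.

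Of the immunoproteasome, 1 gene reached the read minimum. psmb10, which replaces psmb7, had 5.11 and 5.86 CPM in nexn-/- libraries, against 6.23 and 5.79 CPM in nexn+/+ libraries (log2(FC) −0.13, SE 0.21, 95% interval −0.62 to 0.36, adjusted p = 0.659, edgeR). The genotypes overlapped in CPM, and psmb10 stood at 0.032 and 0.033 of psmb7 in nexn-/- libraries, against 0.034 and 0.034 in nexn+/+ libraries, in TPM. psmb8a and psmb9a, the inducible counterparts of psmb5 and psmb6, stayed below the minimum. psmb8a had 1 and 2 reads in nexn-/- libraries, against 0 and 1 in nexn+/+ libraries, and psmb9a had 7 and 3 reads in nexn-/- libraries, against 3 and 2 in nexn+/+ libraries. psmb12 had 7 and 2 reads in nexn-/- libraries, against 0 and 1 in nexn+/+ libraries, psmb13a had 1 read in all, and psmb11a and psmb11b, thymus forms in mammals, had none. At this depth a difference in these 6 genes was not detectable.

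Immune genes outside the proteasome gave a mixed picture. Of 14 tested genes of the MHC class I pathway and the interferon response, 1 was called higher (mhc1zca, a class I molecule, log2(FC) 1.35) and 1 lower (irf1b, an interferon-regulated transcription factor, −1.09) in nexn-/- embryos, with a median of −0.14. This is 14.3% of the list, below the 30.6% of all tested genes. Of 10 tested leukocyte markers, 4 were called higher (mpx and lyz, enzymes of neutrophil and macrophage granules, and coro1a and lcp1, actin-binding proteins of leukocytes), beside 30.6% of all tested genes called in either direction. cybb (log2(FC) −0.58) and rag2 (−0.80) pointed the other way without passing the test. The list summed to 64.8 and 74.5 CPM in nexn-/- libraries, against 40.1 and 30.1 CPM in nexn+/+ libraries, and lyz alone gave 22.5 and 30.9 CPM of it in nexn-/- libraries, against 13.1 and 4.03 CPM in nexn+/+ libraries. ptprc, which marks leukocytes in general, had 1.12 and 1.18 CPM in nexn-/- libraries, against 0.679 and 1.31 CPM in nexn+/+ libraries, and the T cell marker lck had under 10 reads in every library.

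In the 19S particle the 7 ATPase genes lay close together. Their log2(FC) ranged between −0.03 (psmc2) and 0.22 (psmc4), and all 7 intervals lay inside ±0.5. psmc4 had 143 and 158 CPM in nexn-/- libraries, against 131 and 127 CPM in nexn+/+ libraries, which did not overlap but missed edgeR's test (SE 0.11, adjusted p = 0.171). psmd1, the large scaffold subunit of the base, pointed the other way with 155 and 175 CPM in nexn-/- libraries, against 230 and 202 CPM in nexn+/+ libraries (log2(FC) −0.39, SE 0.13, adjusted p = 0.054) and narrowly missed edgeR's test. The adjusted p of psmd1 was 0.045 with DESeq2, 0.035 with limma-voom and 0.043 with the offset for effective length. It was 0.088 with the replicate number as a block and 0.118, 0.284 and 0.563 with scaling by the upper quartile, library size and rpl13.

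Of the 9 genes of the 19S lid, which removes ubiquitin from the substrate, none had an adjusted p under 0.05, and 8 values lay below 0 with TMM scaling. Values ranged from −0.24 (psmd3, adjusted p = 0.152) to 0.06 (psmd6, adjusted p = 0.697), with a median of −0.11. psmd4a, a copy of the gene of the ubiquitin receptor of the base, stood at −0.02 (adjusted p = 0.915).

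Assembly chaperones bring the subunits together and leave the finished particle. None of their 6 genes was called. Those of the 19S base ranged from −0.22 (psmd9) to 0.11 (psmd10), and those of the 20S core from −0.41 (psmg3) to −0.10 (psmg2). psmg3 had 16.0 and 15.1 CPM in nexn-/- libraries, against 18.0 and 23.3 CPM in nexn+/+ libraries (SE 0.16, adjusted p = 0.085), so that the nexn+/+ replicates differed from each other more than the nearest libraries of both genotypes did. Without nexn+/+ replicate 1, psmg3 was called lower (log2(FC) −0.59).

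Activators cap the core in place of the 19S particle. psme1, a subunit of the PA28 cap that interferon induces in mammals, had 4.71 and 5.81 CPM in nexn-/- libraries, against 3.11 and 2.17 CPM in nexn+/+ libraries. This rise was 2.00-fold (log2(FC) 1.00, SE 0.28, 95% interval 0.33 to 1.67, adjusted p = 0.033, edgeR) and rested on 105 and 133 reads in nexn-/- libraries, against 55 and 43 reads in nexn+/+ libraries. The effective length of psme1 was 723 and 645 nt in nexn-/- libraries, against 882 and 317 nt in nexn+/+ libraries, and with an offset for it the log2(FC) was 0.65 (adjusted p = 0.225). With DESeq2 psme1 was not called either (log2(FC) 0.98, adjusted p = 0.056). Without nexn-/- replicate 1 or 2, designs that called only 4 genes higher and 0 lower of all genes tested and so say nothing on a single call, its log2(FC) was 1.14 and 0.84. psme2, which forms the same cap and was named for that after its values were seen, had 2.33 and 2.49 CPM in nexn-/- libraries, against 2.21 and 2.97 CPM in nexn+/+ libraries (log2(FC) −0.11, 95% interval −0.82 to 0.60, adjusted p = 0.812). The ratio of psme1 to psme2 reads was 2.02 and 2.33 in nexn-/- libraries, against 1.41 and 0.729 in nexn+/+ libraries. In TPM this ratio was 4.01 and 5.24 in nexn-/- libraries, against 2.31 and 3.30 in nexn+/+ libraries. psme1 itself had 7.66 and 10.3 TPM in nexn-/- libraries, against 3.35 and 7.66 TPM in nexn+/+ libraries, so the genotypes touched. The summed leukocyte markers were higher in nexn-/- libraries too, though the list was mixed, and their part in the rise of psme1 was not tested.

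psme4b, a copy of the gene of the nuclear activator PA200, had 43.9 and 42.0 CPM in nexn-/- libraries, against 59.1 and 51.4 CPM in nexn+/+ libraries (log2(FC) −0.36, SE 0.11, adjusted p = 0.046, edgeR). It fell within the fold limit, but its adjusted p was 0.101 with DESeq2, 0.059 without nexn+/+ replicate 1, and 0.116, 0.343 and 0.671 with scaling by the upper quartile, library size and rpl13 (log2(FC) −0.26, −0.21 and −0.12). psmf1 encodes PI31, a protein first described as an inhibitor of the core. It had 9.60 and 9.31 CPM in nexn-/- libraries, against 14.6 and 12.6 CPM in nexn+/+ libraries (log2(FC) −0.53, SE 0.16, adjusted p = 0.041), and fell just past the fold limit. The call of psmf1 was lost with DESeq2 (log2(FC) −0.54, adjusted p = 0.095), with scaling by library size (log2(FC) −0.37), the upper quartile (−0.42) and rpl13 (−0.28) and without nexn+/+ replicate 1 (−0.42). Without nexn-/- replicate 1 or 2 its log2(FC) was −0.55 and −0.50. Its distance from the median of all tested genes, which a change of scaling can hardly alter, was between −0.66 and −0.44 under all alternatives.

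**Figure D3:**
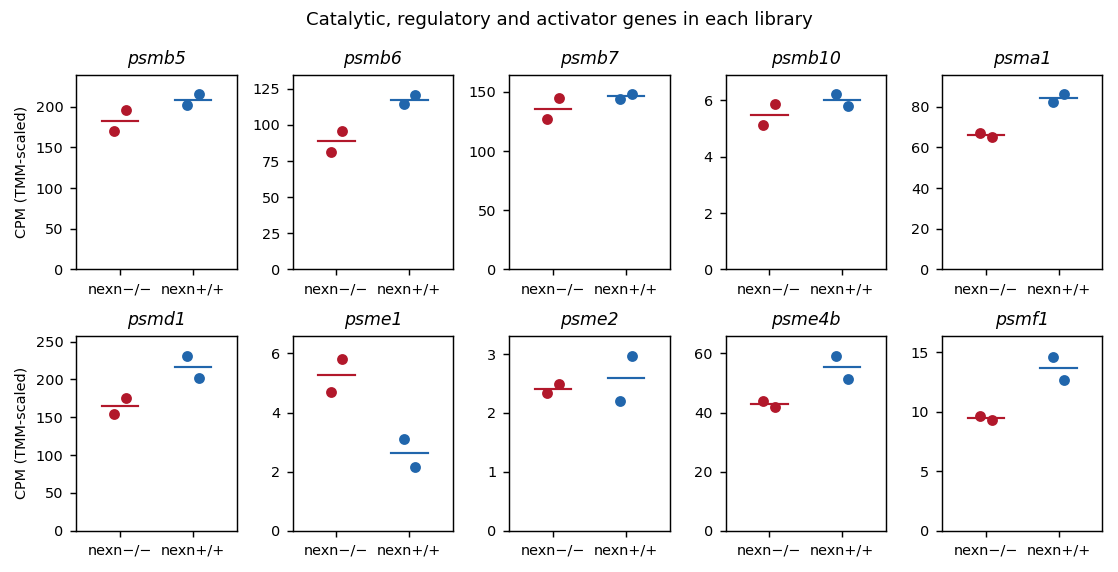
TMM-scaled CPM of 10 proteasome genes in each library (points) with the mean of each genotype (lines), nexn-/- left in red and nexn+/+ right in blue; every vertical axis starts at 0. psme1 lies higher in nexn-/- libraries, psma1, psmb6, psmd1, psme4b and psmf1 lie lower, as does psmb5 by less, and psmb7, psmb10 and psme2 overlap.

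The chaperonin genes were more abundant than most proteasome genes. CCT rows summed to 1750 and 1902 TPM in nexn-/- libraries, against 1690 and 1997 TPM in nexn+/+ libraries, which overlapped. By TPM, 7 of the 8 subunits lay between 177 and 287 TPM in all libraries, and cct8 lay lower with 91.7 and 100.03 TPM in nexn-/- libraries, against 84.7 and 107 TPM in nexn+/+ libraries. In TMM-scaled CPM the sums did not overlap, with 2379 and 2624 CPM in nexn-/- libraries, against 2805 and 2813 CPM in nexn+/+ libraries. cct2 was the subunit that was called. It had 121 and 152 CPM in nexn-/- libraries, against 214 and 184 CPM in nexn+/+ libraries (log2(FC) −0.54, SE 0.15, 95% interval −0.90 to −0.19, adjusted p = 0.031, edgeR). In TMM-scaled CPM the genotypes did not overlap for 6 of the 8 subunits (cct2, cct3, cct4, cct5, cct6a and cct8), all lower in nexn-/- libraries. This share of 75.0% was near that of all tested genes (70.9%) and of those at 40 CPM or more (77.8%). Of the latter without overlap, 2450 were lower and 803 higher in nexn-/- libraries. In TPM the genotypes did not overlap for cct2 alone, with 198 and 236 TPM in nexn-/- libraries, against 276 and 287 TPM in nexn+/+ libraries. These values leave out a further, shorter row with the symbol cct2. That row had 118 and 154 TPM in nexn-/- libraries, against 107 and 127 TPM in nexn+/+ libraries, which overlapped. The separation in TPM therefore holds for the longer cct2 row and is not shown for both rows together.

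**Figure D4:**
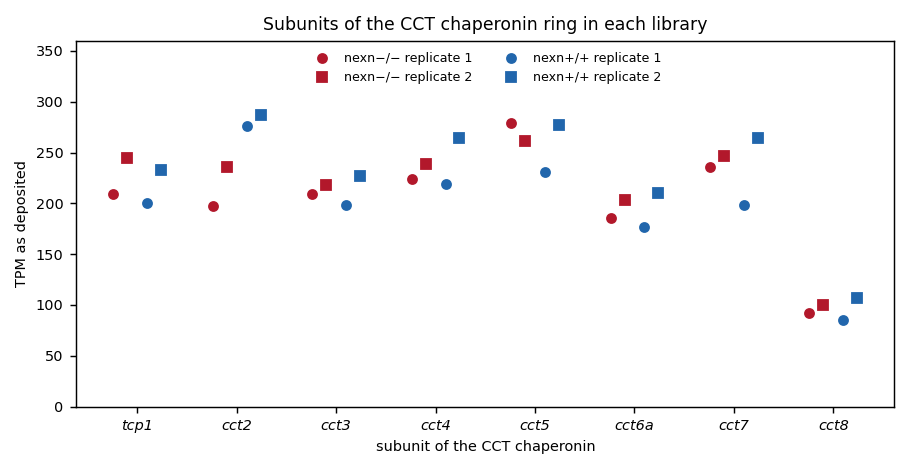
Deposited TPM of the 8 CCT subunits in each library, nexn-/- replicates in red and nexn+/+ replicates in blue (circles replicate 1, squares replicate 2). cct2, drawn without its shorter row, lies at 198 and 236 TPM in nexn-/- libraries and at 276 and 287 TPM in nexn+/+ libraries. The other subunits overlap.

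The other 7 subunits were not called. Their log2(FC) values were −0.10 for tcp1, −0.17 for cct3, −0.23 for cct4, −0.07 for cct5, −0.18 for cct6a, −0.10 for cct7 and −0.17 for cct8, with adjusted p between 0.190 and 0.660. Their intervals lay between −0.52 and 0.23, so the estimate of cct2 (−0.54) lay outside all 7 of them. The interval of cct2 itself, −0.90 to −0.19, overlapped theirs, and a difference between subunits was not tested. The log2(FC) of the other 7 subunits lay below 0 with TMM scaling and above 0 with scaling to rpl13. cct2 (longer row) relative to the median of the other subunits was 0.944 and 0.989 in nexn-/- libraries, against 1.39 and 1.23 in nexn+/+ libraries, a comparison within each library that no scaling can alter. cct2 had the lowest log2(FC) of the CCT rows in these same libraries. Its ratio was therefore likely to separate and is no separate evidence for cct2. For tcp1, cct3, cct5, cct6a, cct7 and cct8 the same ratio overlapped between genotypes, and for cct4 it was 1.07 and 1.01 in nexn-/- libraries, against 1.102 and 1.13 in nexn+/+ libraries. Of alpha and 19S genes, this ratio was computed only for psma1, psmd1 and psmc4, and it did not overlap. These genes had the lowest log2(FC) of the alpha genes and the lowest and highest of the 19S genes. Taken from the extremes of the same libraries, they were likely to separate, and the ratio is no separate evidence for them. Against 7 other alpha genes, psma1 was 0.226 and 0.218 in nexn-/- libraries, beside 0.313 and 0.277 in nexn+/+ libraries. Against the other 19S genes, psmd1 was 0.748 and 0.763 in nexn-/- libraries, beside 1.102 and 0.961 in nexn+/+ libraries. psmc4 stood higher, with 1.28 and 1.29 in nexn-/- libraries, beside 0.995 and 1.01 in nexn+/+ libraries. The call of cct2 was lost with library size alone (log2(FC) −0.39), the upper quartile (−0.44) and rpl13 (−0.31) and without nexn+/+ replicate 1 (−0.43). Without nexn-/- replicate 1 or 2 its log2(FC) was −0.39 and −0.71. A further row with the symbol cct2 (ENSDARG00000087206, beside ENSDARG00000104674), with an effective length of 75.7 to 89.3 nt, had 7.76 and 12.0 CPM in nexn-/- libraries, against 9.91 and 8.61 CPM in nexn+/+ libraries (log2(FC) 0.09, adjusted p = 0.796), and the counting may split reads between both rows.

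**Figure D5:**
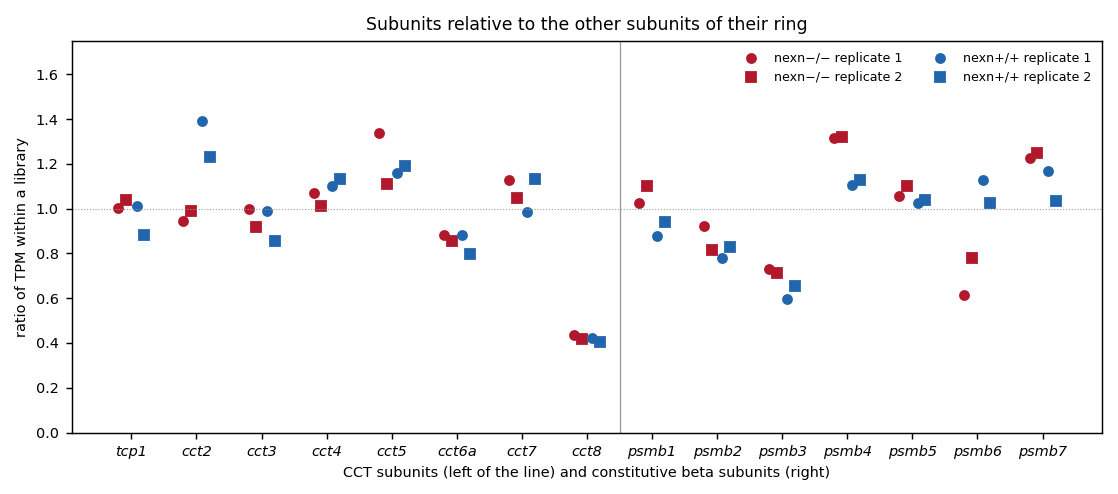
TPM of each of the 8 CCT subunits and the 7 constitutive beta subunits divided by the median TPM of the others of its kind, in each library, nexn-/- replicates in red and nexn+/+ replicates in blue (circles replicate 1, squares replicate 2). Genotypes are separate for cct2, cct4 and psmb6 (lower in nexn-/-) and for psmb1, psmb3, psmb4, psmb5 and psmb7 (higher in nexn-/-), and overlap for the others. TPM is divided by effective length, which was longer for psmb6 in nexn-/- libraries. The shorter row of cct2 is left out.

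Of 13 tested genes of prefoldin, which hands actin and tubulin to CCT, and of CCT cofactors, 1 was called lower, the phosducin-like pdcl (107 and 99.8 CPM in nexn-/- libraries, against 175 and 179 CPM in nexn+/+ libraries, log2(FC) −0.77, adjusted p = 0.003, edgeR). This is 7.69% of the list, below the 30.6% of all tested genes. Of 14 tested tubulin genes, which encode clients of CCT, 5 were called lower (tuba2 −1.09, tuba1c −0.87, tubb5 −0.78, tubb2 −0.58 and tuba1a −0.55) and 1 higher (tuba8l3, 1.03), with TMM scaling, which is 42.9% of the list against 30.6% of all tested genes. The list had a median of 486 CPM. Of all tested genes at 40 CPM or more, 35.4% were called, 1130 lower and 351 higher in nexn-/- embryos. The mitochondrial chaperonin genes hspd1 and hspe1 had values of 0.19 and 0.21 and were not called. Of 21 cytosolic heat shock genes, 4 were called higher (hspa8b 1.80, bag3 1.23, hspb1 1.07 and dnajb1b 0.68) and 2 lower (hsp90aa1.2 −0.94 and dnaja2b −0.63), with a median of 0.02. This is 28.6% of the list, near the 30.6% of all tested genes.

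Of 9 genes of proteasome parts and partners without a psm symbol, ubl7a was called lower (log2(FC) −1.04, adjusted p = 0.004, edgeR). This is 11.1% of the list, below the 30.6% of all tested genes. Among 7 genes of the axis of nfe2l1, the transcription factor that raises proteasome genes in mammals when the proteasome is inhibited, keap1a, an adaptor that marks a related factor for degradation, was called higher (log2(FC) 0.74, adjusted p = 0.013), and the other 6 were not called. The partner protein genes psmc3ip, a cofactor of meiotic recombination, and psme3ip1, a binding partner of an activator, had values of −0.50 (adjusted p = 0.147, edgeR) and −0.19 (adjusted p = 0.268). Neither was called, so leaving them out could not change a count of calls.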

How the data were processed

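RNA of pooled whole embryos was sequenced by a service provider. Per the labels and the paper, reads were mapped to GRCz11, and the submitters' processing notes name STAR and RSEM; versions and annotation are not given in the sources used here. The authors deposited, for 32057 genes in each of the 4 libraries, estimated counts, which are not normalized, and TPM and FPKM values, which the authors scaled to library total and gene length. Each table's library was taken from its deposition record, since the column headings of all 4 tables carry the name of the same library.

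Counts were rounded to whole numbers. Genes were filtered by filterByExpr (20312 kept), scaled by TMM (factors 1.07 and 1.04 for nexn-/- and 0.88 and 1.02 for nexn+/+ libraries) and tested by genotype with edgeR 4.0.16 (quasi-likelihood test, R 4.3.3) and Benjamini-Hochberg adjustment over all tested genes. The authors' limits were used, an adjusted p under 0.05 and a log2(FC) beyond 0.5. All 59 members passed the filter. An exact permutation test of 2 libraries against 2 cannot go below p = 0.333, so sums and ratios are given without a test. Effective lengths were computed from deposited counts and FPKM. The test was run on simulated data with the means and library sizes of this comparison (20013 genes), where it recovered 3 of 64 genes changed by a log2(FC) of 0.5, 38 of 66 changed by 1 and 64 of 70 changed by 2, and called 29 of 19813 unchanged genes. In the real data a far larger share of genes, 35.1%, had an adjusted p under 0.05. The adjustment depends on that share, so the simulated recovery does not carry over to this comparison.

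The members, roles and gene lists were chosen with earlier results of these data known. Named with values were the immunoproteasome, psmb5, psmb6, psmb7, all CCT subunits, every called member, the highest and lowest member of each role, and called genes of the other lists. Member symbols were those of the deposited tables, and the table of gene names held all 65 identifiers. psmd2 and psmg4, promoter sequences and protein sequences were not analysed here, and the list of ubiquitin genes is not reported here. Alternatives were DESeq2 1.42.0, limma-voom (limma 3.58.1), other scalings, filters and fold limits, the replicate number as a block, effective length offsets and each library left out in turn. The values at 40 CPM or more, the ratios within a library and the counts without partner genes were chosen after seeing the data.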

Additional observations from a re-analysis of the deposited data

How the results depend on the processing

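Of 490 values of 35 named members under 14 alternatives, 440 kept their direction and their status as called or not called, or changed sign by less than 1 SE, 30 moved, 18 lost a call and 2 gained one. Only psme1, cct2 and psmf1 had a call to lose, so the 440 values come mostly from members that were never called. Under the 10 alternatives that kept all libraries, psme1 was called in 8, cct2 in 7 and psmf1 in 5. Calls among members came to 0 higher with DESeq2, with effective length offsets, with a log2(FC) beyond 1 and among members with 100 or more reads in all libraries, and to 1 lower with DESeq2, 0 lower with library size, upper quartile or rpl13 scaling and a log2(FC) beyond 1, and 5 lower with no fold limit. Without each replicate in turn, 0 to 1 members were called higher and 0 to 2 lower, and the 95% interval lay inside the fold limit for 10 to 45 members, against 27 with library size alone and 12 with rpl13. The median log2(FC) of CCT rows was 0.064 with rpl13, −0.064 with the upper quartile, −0.023 with library size alone and −0.25 to −0.094 without each replicate in turn, and that of proteasome genes 0.15, 0.026, 0.065 and −0.13 to 0.026 under the same settings. Over all genes, a log2(FC) beyond 1 left 2218 higher and 922 lower calls, rpl13 scaling gave 1466 lower and library size alone 1880 lower calls, and leaving out replicates gave 4 to 4928 higher and 0 to 3632 lower calls. With the block, psma1 and psme4b had adjusted p of 0.068 and 0.057. Where a nexn-/- library was left out, hardly any gene was called, and the lone library was assumed to vary like the other genotype. Same-numbered replicates did not deviate together (correlation −0.02), and with the replicate number as a block 1 member was called higher and 1 lower, since psmf1 had an adjusted p of 0.060. Summed levels moved to log2 ratios of −0.06 (19S), −0.08 (20S) and −0.17 (CCT) with CPM in place of TPM. Genes under 10 CPM, such as psme1, psme2 and psmb10, were limited by depth. The planned search for promoter motifs was not run.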

Other observations

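Zebrafish carry several copies of some proteasome genes, whose shares of the reads are given here as values without a test. psmc1a held 61.5% and 64.0% of the reads of the pair psmc1a and psmc1b in nexn-/- libraries, against 58.6% and 64.9% in nexn+/+ libraries. psmd4a held 48.6% and 50.4% of its pair in nexn-/- libraries, against 47.4% and 47.9% in nexn+/+ libraries, and psmd11a held 46.7% and 46.2% in nexn-/- libraries, against 47.9% and 44.9% in nexn+/+ libraries. psma6a took 59.3% and 61.2% of the reads of the 3 psma6 genes in nexn-/- libraries, against 61.6% and 62.3% in nexn+/+ libraries, with psma6l under 1% in every library. psme4b held 82.3% and 83.1% of its pair in nexn-/- libraries, against 85.2% and 83.2% in nexn+/+ libraries. Shares overlapped between genotypes for psmc1a and psmd11a and did not for psma6a, psmd4a and psme4b. The nearest nexn-/- and nexn+/+ libraries lay at 61.2% and 61.6% for psma6a, 48.6% and 47.9% for psmd4a and 83.1% and 83.2% for psme4b. For each of these genes the nexn-/- replicates differed from each other by more than that. How often shares of other gene copies separate was not computed, so no shift between copies is concluded. How the counting split reads of similar copies was not tested.

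All members together took 0.651% and 0.700% of the counts in nexn-/- libraries, against 0.605% and 0.715% in nexn+/+ libraries.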
